A study of Mus musculus with 16 samples.

Results

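RNA-seq counts of mouse liver were examined for 10 genes of de novo lipogenesis, the pathway that builds fatty acids from acetyl-CoA. They were the rows whose Ensembl identifiers map to Srebf1, Slc25a1, Acly, Acss2, Me1, Acaca, Acacb, Fasn, Elovl6 and Scd1, 10 of the 46078 genes in the table. The set is defined by function, as the enzymes, the citrate carrier and the transcription factor of this pathway. It was chosen with earlier results of these data known, so counts of its genes called are a description of the set. Male mice, assigned to diets as young adults and labelled as strain C56B6/J, which the study's methods give as C57BL6/J, were kept for 16 weeks on a control diet, abbreviated CD, or on a diet drawing 60% of its calories from fat, abbreviated HFD. Livers were collected from mice with free access to food (fed) or after 16 h without food (fast). The groups were CD fed, CD fast, HFD fed and HFD fast, with 4 libraries each and no agent or transgene in any of them. The questions put to these genes were how far they fall in a fast, how far a high-fat diet shifts them, and whether the diet changes their response to fasting.

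Hepatic lipogenesis converts surplus carbohydrate to fat after a meal. Citrate leaves the mitochondrion, is cleaved to acetyl-CoA in the cytosol, and is carboxylated, condensed, elongated and desaturated with NADPH as the reductant. SREBP-1, the product of Srebf1, is made as a membrane-bound precursor in the endoplasmic reticulum that must be carried to the Golgi and cut there before it can enter the nucleus and activate these genes. Insulin raises SREBP-1c transcription and processing, glucose acts through ChREBP, and polyunsaturated fatty acids are known to lower both Srebf1 expression and processing. A messenger RNA level of Srebf1 is therefore not a measure of the active factor.

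Library totals ranged from 41364448 to 57583153 counts, and the least abundant of the 10 genes still had a mean of 5548 counts per library. Counting error was therefore small beside a wide spread between libraries, but not beside a narrow one. The narrowest was that of Acss2 in CD fast, with an SD of 2.54% of the mean. Levels are given as CPM, the count of a gene relative to the library total after TMM scaling, which corrects for differences in composition between libraries. The 8 hepatocyte markers were all detected, and their summed level was 115300 to 150700 CPM in CD fed libraries and 119300 to 148700 in HFD fed libraries, against 97940 to 120300 in CD fast and 82180 to 112700 in HFD fast libraries, a sum of which Alb makes up the most. In HFD 7 of the 8 markers had a lower group mean after fasting, all but Apob, with Tat at 1673 and 655 CPM and Cps1 at 5196 and 3633 CPM in fed and fasted livers. In CD Alb, Ttr, Fgb and Serpina1a had lower means after fasting and Apoa1, Apob, Tat and Cps1 higher ones. In CD the summed endothelial markers went from 198.1 to 223 CPM in fed libraries to 147.3 to 193.6 in fasted ones, the Kupffer cell and macrophage markers from 217.5 to 371.8 to 144.5 to 226.2, and the stellate cell markers from 203.5 to 266.3 to 123.3 to 206. The endothelial sums in CD did not overlap between fed and fasted libraries, whereas the other 2 sums in CD and all 3 in HFD did. The cholangiocyte sum had the opposite direction, with means in CD of 23.45 CPM when fed and 36.64 when fasted, mostly Spp1, and overlapped. The erythroid sum overlapped as well, at means of 353.3 and 278.4 CPM, but its member Alas2 was lower without overlap in fasted livers, at 163.6 and 76.8 CPM in CD and 131.1 and 100.5 in HFD. Of 6 pancreas markers 4 were at or under 3 counts in every library. Ctrb1 reached 76 counts in 1 HFD fed library, and Cela1 had means of 18.15 and 14.88 CPM in the fed livers of CD and HFD against 8.17 and 7.21 CPM in the fasted livers. The 6 adipocyte markers summed to 6.19 to 19 CPM in 15 libraries and to 76.4 CPM in HFD fast replicate 2, where Cfd alone gave 70.1 CPM, while Adipoq did not exceed 0.976 CPM and Lep did not exceed 0.781 CPM in any library. Stellate sums did not overlap between diets in fasted livers, at 123.3 to 206 CPM in CD and 214.7 to 371.1 in HFD. The endothelial sums and the Kupffer cell and macrophage sums did overlap there. The part of any of these markers in the results was not tested.

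The promoter windows of Srebf1, Fasn and Slc25a1 are printed because these genes mark the limits of the pattern described below: Srebf1 is the regulator, Fasn had the largest fall with fasting in CD and Slc25a1 the smallest. Windows run from 250 bases before to 50 bases after a RefSeq gene start on GRCm38.p6, all on the minus strand and written 5′ to 3′. Srebf1 had 3 starts in RefSeq, with windows at chr11:60222532-60222831, chr11:60220578-60220877 and chr11:60210422-60210721. The bases just after the first of these starts were found near the beginning of a GENCODE transcript of Srebf1, and those after the other 2 were not. The Fasn window is chr11:120824498-120824797 and the Slc25a1 window chr16:17928170-17928469. Capitals mark matches, on either strand, to CCAAT, the letters of the NF-Y box, to GGGCGG, the letters of the Sp1 GC box, and to CACGTG, an E-box bound by USF factors among others.
Srebf1 start 1: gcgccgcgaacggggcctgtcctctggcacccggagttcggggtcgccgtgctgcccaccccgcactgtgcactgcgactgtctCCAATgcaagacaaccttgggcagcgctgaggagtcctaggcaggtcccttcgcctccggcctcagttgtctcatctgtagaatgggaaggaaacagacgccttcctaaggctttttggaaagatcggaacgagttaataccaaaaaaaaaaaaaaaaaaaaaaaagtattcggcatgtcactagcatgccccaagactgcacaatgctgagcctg
Srebf1 start 2: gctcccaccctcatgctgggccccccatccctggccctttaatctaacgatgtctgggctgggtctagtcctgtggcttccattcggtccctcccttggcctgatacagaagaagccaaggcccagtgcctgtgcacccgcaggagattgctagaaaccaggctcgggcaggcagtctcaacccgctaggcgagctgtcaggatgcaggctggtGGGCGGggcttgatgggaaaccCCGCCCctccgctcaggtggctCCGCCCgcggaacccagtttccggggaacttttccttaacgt
Srebf1 start 3: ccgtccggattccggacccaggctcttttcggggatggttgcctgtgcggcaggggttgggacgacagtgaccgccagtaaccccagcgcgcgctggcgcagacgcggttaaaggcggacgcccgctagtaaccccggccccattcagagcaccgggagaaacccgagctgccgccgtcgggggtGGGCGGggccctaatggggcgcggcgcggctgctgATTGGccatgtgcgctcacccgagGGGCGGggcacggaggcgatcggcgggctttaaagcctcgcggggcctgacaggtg
Fasn: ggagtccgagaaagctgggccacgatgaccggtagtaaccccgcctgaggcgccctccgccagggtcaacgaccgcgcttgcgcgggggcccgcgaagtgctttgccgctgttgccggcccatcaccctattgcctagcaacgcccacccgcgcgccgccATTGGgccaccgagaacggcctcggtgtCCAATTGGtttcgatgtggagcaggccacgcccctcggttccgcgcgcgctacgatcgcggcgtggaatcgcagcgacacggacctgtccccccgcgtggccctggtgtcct
Slc25a1: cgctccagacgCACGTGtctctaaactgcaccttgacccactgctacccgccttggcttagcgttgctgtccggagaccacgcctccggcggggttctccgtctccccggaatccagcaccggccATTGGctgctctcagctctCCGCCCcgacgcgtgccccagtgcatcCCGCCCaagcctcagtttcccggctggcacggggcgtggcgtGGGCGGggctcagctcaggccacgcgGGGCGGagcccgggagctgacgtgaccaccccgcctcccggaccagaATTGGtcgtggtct

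RefSeq windows were found for 9 of the 10 genes, 12 windows in all, with no entry for Scd1. CCAAT was present in 8 of the 12 windows, from 7 genes, against 37.4% of all 32851 promoter windows of the same length, and GGGCGG in 6 of the 12, from 5 genes, against 35.7%. Fasn held 3 CCAAT matches, at 90, 62 and 59 bases before the start, and the last 2 lie on opposite strands and overlap. CACGTG was found in Slc25a1 alone and in 7.15% of all windows. The sterol regulatory element letters TCACNCCAC, searched on both strands, were in none of the 12 windows and in 1.24% of all windows, which says only that these exact letters are not within these 300 bases. No match is evidence of binding, and Srebf1 (3) and Me1 (2) have more than 1 window.

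**Figure D1:**
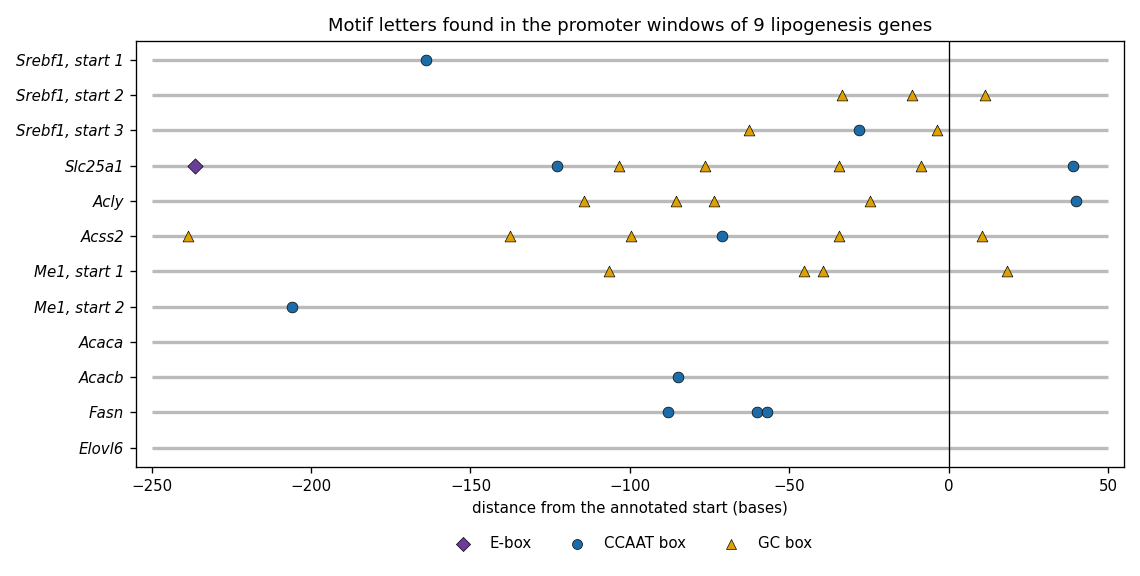
Position of motif letters in the 12 promoter windows of 9 genes (rows), with the distance from the annotated start in bases on the x axis. Grey lines are the windows, points are matches on either strand coloured by motif, and CCAAT matches lie in windows of 7 of the 9 genes.

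Fasting in CD lowered every gene of the set. All 10 passed the test (adjusted p under 0.05 by edgeR's quasi-likelihood test with Benjamini-Hochberg adjustment over 15075 genes), where 11.5% of all genes tested were called lower. The median log2 fold change was -1.98 over the 10 genes and -0.01 over all genes. For 9 of the 10 the CD fast libraries lay wholly below the CD fed libraries, a pattern shown by 12.3% of all genes. In bulk tissue, fewer cells of a type and less RNA per cell cannot be told apart.

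Srebf1 (ENSMUSG00000020538, chr11:60199089-60222581, minus strand) was the first gene considered, since it encodes the regulator. It measured 165, 187, 178 and 171 CPM in CD fed libraries and 39.2, 33.3, 74.6 and 47.4 CPM in CD fast libraries. In HFD fed libraries it measured 291, 217, 212 and 218 CPM, and in HFD fast libraries 96.5, 145, 105 and 102 CPM. The 4 groups did not overlap at all, and their order from high to low was HFD fed, CD fed, HFD fast, CD fast. Fasting lowered Srebf1 in CD (log2 fold change -1.85 ± 0.21 SE, 3.6-fold, adjusted p = 2.79e-05) and in HFD (-1.06 ± 0.20, 2.09-fold, adjusted p = 0.00624).

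The response of Srebf1 to HFD went upward. In fasted mice it was 2.31-fold higher in HFD than in CD (1.21 ± 0.20, adjusted p = 0.00512), a call that was lost when edgeR was fitted to these 2 groups alone (1.21, adjusted p = 0.0556). In fed mice every HFD library was above every CD library, as for 7.22% of all genes, but the rise of 0.42 ± 0.20 on the log2 scale did not pass the test over all genes (adjusted p = 0.222, 95% interval -0.01 to 0.86), although it did in a fit of these 2 groups alone (0.43, adjusted p = 0.0424). HFD fed replicate 1, at 291 CPM, stood apart from the other 3 libraries, and the rise was 0.30 without it. HFD fast replicate 2, the library with the highest adipocyte marker sum, also had the highest Srebf1 of its group, and without it the rise in fasted mice was 1.06 (adjusted p = 0.0117). Srebf1 overlaps Rai1 on the opposite strand and 2 microRNA genes, and reads of such neighbours could not be separated here since the strand setting of the counting step is not given in the sources used here.

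**Figure D2:**
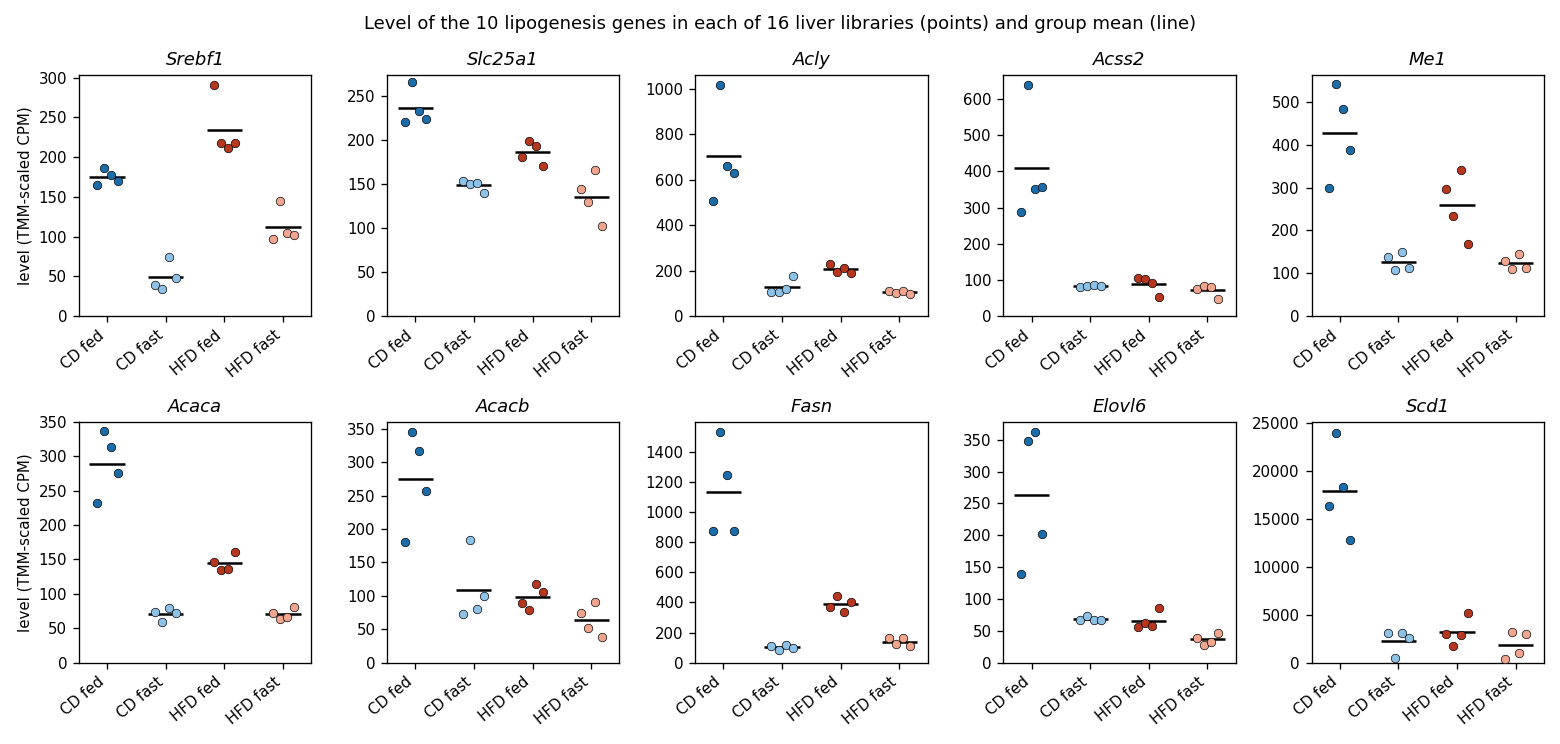
Level of each of the 10 genes in the 16 libraries (points, TMM-scaled CPM on a linear y axis starting at 0) by group, with the group mean as a line. Srebf1 is highest in HFD fed libraries, at 212 to 291 CPM, whereas the 9 other genes have their highest group mean in CD fed livers.

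The genes that supply cytosolic acetyl-CoA had unlike sizes of response. Acly (chr11:100476353-100528000, minus strand) encodes ATP citrate lyase, which splits citrate into acetyl-CoA and oxaloacetate. It measured 507, 1016, 661 and 631 CPM in CD fed libraries, 106, 107, 119 and 175 in CD fast, 229, 192, 213 and 190 in HFD fed and 111, 99.1, 112 and 94.4 in HFD fast. The CD fed libraries were far above all others, and HFD fed libraries lay above both fasted groups without overlap. Acly fell 5.55-fold with fasting in CD (log2 fold change -2.47 ± 0.20, adjusted p = 2.12e-06) and 1.98-fold in HFD (-0.98 ± 0.19, adjusted p = 0.00667).

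Acss2 (chr2:155517948-155585724, plus strand) encodes the cytosolic acetyl-CoA synthetase, which makes acetyl-CoA from acetate. Its level was 287, 638, 351 and 358 CPM in CD fed libraries, 80.0, 83.9, 84.7 and 83.7 in CD fast, 104, 103, 91.5 and 53.6 in HFD fed and 73.4, 83.3, 80.1 and 47.6 in HFD fast. Only the CD fed group was high, and the other 3 groups overlapped. It fell 4.91-fold with fasting in CD (-2.30 ± 0.25, adjusted p = 2.52e-05), and in HFD the change of -0.31 ± 0.24 did not pass the test (adjusted p = 0.444, 95% interval -0.84 to 0.22). Acss2 overlaps 5 annotated genes, among them its antisense gene Acss2os and Gss.

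Slc25a1 (chr16:17925223-17928219, minus strand) encodes the mitochondrial citrate carrier, which exports the citrate that Acly cleaves. It measured 221, 266, 233 and 224 CPM in CD fed libraries, 153, 150, 151 and 140 in CD fast, 181, 199, 194 and 171 in HFD fed and 145, 130, 166 and 102 in HFD fast. Fed libraries were above fasted libraries in both diets, and the 2 fasted groups overlapped. Its fall with fasting was the smallest of the set in CD (-0.67 ± 0.12, 1.59-fold, adjusted p = 0.000871) and was 1.37-fold in HFD (-0.46 ± 0.12, adjusted p = 0.0244), a call that was lost in 3 of 16 fits that each left out 1 library and in a fit of the 2 HFD groups alone (-0.46, adjusted p = 0.0766).

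Me1 (chr9:86581371-86695953, minus strand) encodes cytosolic malic enzyme, a source of NADPH for fatty acid synthesis. It measured 300, 542, 484 and 388 CPM in CD fed libraries, 138, 108, 150 and 112 in CD fast, 297, 233, 341 and 169 in HFD fed and 128, 110, 146 and 111 in HFD fast. The 2 fasted groups covered the same range, and HFD fed libraries reached into the range of CD fed libraries. Fasting lowered Me1 3.37-fold in CD (-1.75 ± 0.21, adjusted p = 5.51e-05) and 2.1-fold in HFD (-1.07 ± 0.21, adjusted p = 0.00718).

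The core of the pathway is the carboxylation of acetyl-CoA and its condensation to palmitate. Fasn (chr11:120805846-120824547, minus strand) encodes fatty acid synthase, the enzyme that makes palmitate from malonyl-CoA. It measured 874, 1527, 1244 and 874 CPM in CD fed libraries, 111, 86.1, 120 and 98.6 in CD fast, 370, 441, 336 and 401 in HFD fed and 161, 122, 164 and 111 in HFD fast. The fed groups overlapped neither each other nor the fasted groups. The fall with fasting in CD was 10.9-fold (-3.44 ± 0.20, adjusted p = 1.2e-07), the largest of the set and the second smallest p of all 15075 genes, and in HFD it was 2.78-fold (-1.47 ± 0.19, adjusted p = 0.000444).

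Acaca (chr11:84129672-84401651, plus strand) encodes acetyl-CoA carboxylase 1, which makes the malonyl-CoA used for synthesis. Its level was 231, 336, 313 and 276 CPM in CD fed libraries, 73.1, 59.4, 80.0 and 71.7 in CD fast, 146, 135, 137 and 161 in HFD fed and 71.7, 64.0, 66.0 and 81.3 in HFD fast. The HFD fed libraries lay between CD fed and the fasted libraries without overlap, and the fasted libraries of both diets covered the same range. Acaca fell 4.07-fold with fasting in CD (-2.02 ± 0.12, adjusted p = 1.28e-07) and 2.04-fold in HFD (-1.03 ± 0.12, adjusted p = 0.000302).

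Acacb (chr5:114146535-114250761, plus strand) encodes acetyl-CoA carboxylase 2, the mitochondrial isoform whose malonyl-CoA inhibits fatty acid entry into mitochondria. It measured 180, 345, 316 and 257 CPM in CD fed libraries, 72.8, 183, 79.6 and 100 in CD fast, 89.1, 79.0, 118 and 106 in HFD fed and 75.0, 51.4, 90.1 and 38.5 in HFD fast. CD fast replicate 2 was slightly above the lowest CD fed library, and the other 3 CD fast libraries were well below. The fall in CD was 2.52-fold (-1.33 ± 0.31, adjusted p = 0.00543), and it was -1.71 on the log2 scale without that library. In HFD the change of -0.62 ± 0.30 did not pass the test (adjusted p = 0.213, 95% interval -1.28 to 0.04). Acaca and Acacb are paralogs, and reads shared between them could be assigned to either.

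The last steps lengthen and desaturate palmitate. Elovl6 (chr3:129532355-129638495, plus strand) encodes the elongase that converts palmitate to stearate. It measured 140, 348, 362 and 202 CPM in CD fed libraries, 66.9, 73.0, 66.8 and 67.2 in CD fast, 55.3, 62.2, 58.3 and 85.8 in HFD fed and 39.4, 27.6, 32.9 and 46.4 in HFD fast. HFD fed livers were thus at the level of CD fast livers, and HFD fast libraries were below all others. It fell 3.84-fold with fasting in CD (-1.94 ± 0.25, adjusted p = 9.83e-05) and 1.79-fold in HFD (-0.84 ± 0.25, adjusted p = 0.0475). The second of these calls was lost in 12 of 16 fits that each left out 1 library, and with total count scaling (adjusted p = 0.073), upper quartile scaling (adjusted p = 0.0554) and the replicate block (adjusted p = 0.064).

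Scd1 (chr19:44394455-44407879, minus strand) encodes stearoyl-CoA desaturase 1, which makes oleate and palmitoleate, and was by far the most abundant of the set per length. Its level per kilobase of merged exons in CD fed livers was 3646 ± 952 CPM (SD, n = 4), against 133 ± 41.5 for Acly, 111 ± 27.7 for Me1, 109 ± 9.57 for Slc25a1, 103 ± 29 for Fasn, 40.9 ± 17 for Elovl6, 40.2 ± 15.4 for Acss2, 31.1 ± 1.65 for Srebf1, 28.5 ± 7.56 for Acacb and 16.9 ± 2.69 for Acaca. The levels per kilobase of Acly, Me1, Slc25a1 and Fasn did not differ beyond their spread, nor did those of Elovl6, Acss2, Srebf1 and Acacb. Scd1 measured 16350, 23920, 18300 and 12760 CPM in CD fed libraries, 3062, 466, 3060 and 2588 in CD fast, 3022, 1750, 2923 and 5124 in HFD fed and 348, 3209, 961 and 2947 in HFD fast. Levels were high in CD fed livers alone, and the fasted groups were widely spread, with 1 very low library in CD fast and 2 low libraries in HFD fast. The fall in CD was 7.77-fold (-2.96 ± 0.65, adjusted p = 0.00403), and the change in HFD of -0.78 ± 0.60 did not pass the test (adjusted p = 0.442, 95% interval -2.09 to 0.53). That change was -0.43 without HFD fast replicate 1, -0.46 without HFD fed replicate 4 and -1.19 without HFD fast replicate 2. Scd1 has closely similar copies in Scd2, Scd3 and Scd4, with which reads may be shared.

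Fasting in HFD therefore lowered 7 of the 10 genes, with a median log2 fold change of -0.91, where 4.07% of all genes were called lower and the median of all genes was 0.01. All 7 had HFD fast libraries wholly below HFD fed libraries, as did 8.66% of all genes. The genes not called were Acss2, Acacb and Scd1. Each gene had a smaller fall in HFD than in CD, from 13.6% of the CD fall on the log2 scale for Acss2 to 68.6% for Slc25a1. The HFD change of Acss2 behind the first of these, -0.31, was -0.16 when HFD fast replicate 4 was left out and -0.49 when HFD fed replicate 4 was. Over all genes fewer were called lower with fasting in HFD than in CD as well, at 4.07% and 11.5%. How many of the genes that fell in CD had a smaller fall in HFD was not counted, so the smaller falls are not read as particular to this set. Without HFD fed replicate 1, 5 genes were called.

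**Figure D3:**
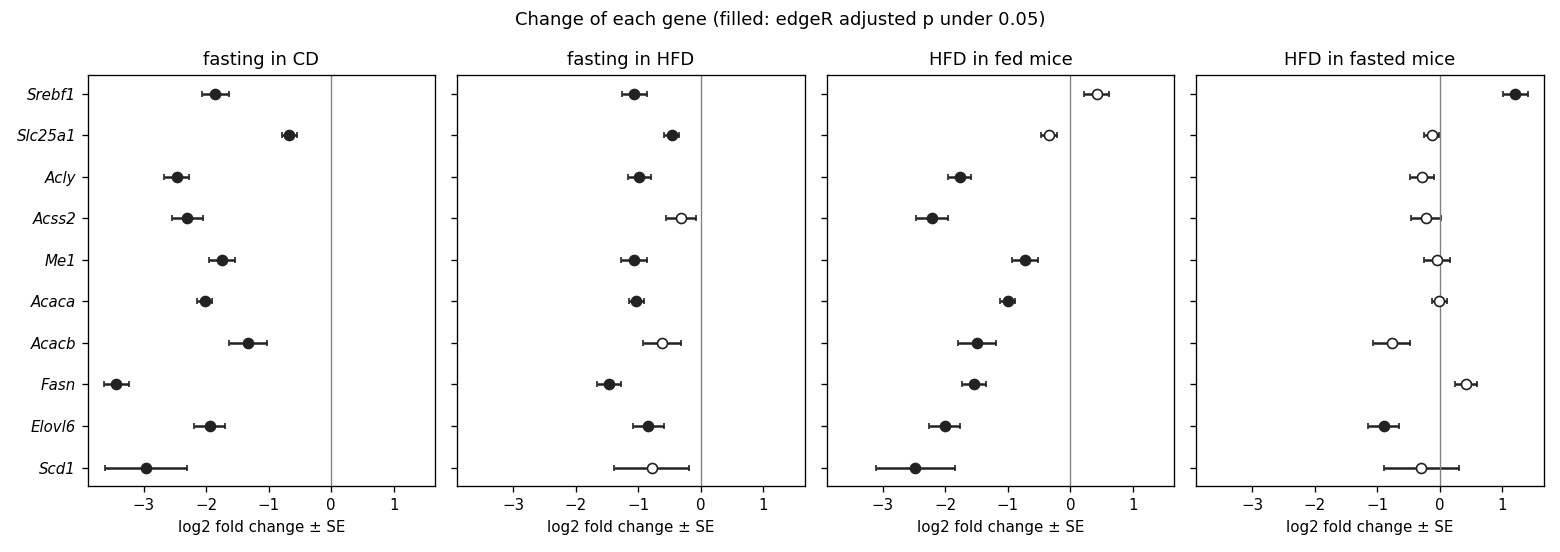
Log2 fold change (x axis, ± SE) of the 10 genes in the fasting contrast of each diet and the diet contrast of each feeding state, with filled points for an adjusted p under 0.05. All points lie below 0 for fasting in CD, and Srebf1 alone is called higher with HFD, at 1.21 in fasted mice (not called when these 2 groups are fitted alone).

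The interaction, which tests whether the fasting change differed between diets, was called for 4 of the 10 genes, all with a smaller fall in HFD, where 2.59% of all genes were called and 1.23% in that direction. The difference in log2 fold change was 1.97 ± 0.26 for Fasn (adjusted p = 0.00287), 1.99 ± 0.35 for Acss2 (adjusted p = 0.0122), 0.99 ± 0.17 for Acaca (adjusted p = 0.0114) and 1.49 ± 0.27 for Acly (adjusted p = 0.0132). The difference did not pass the test for Scd1 (2.18 ± 0.86, adjusted p = 0.169), whose error was the largest, for Elovl6 (1.10 ± 0.35, adjusted p = 0.1), Srebf1 (0.78 ± 0.28, adjusted p = 0.141), Me1 (0.68 ± 0.29, adjusted p = 0.208) or Acacb (0.71 ± 0.43, adjusted p = 0.361), which was 1.09 without CD fast replicate 2 (adjusted p = 0.133). For Slc25a1 it was 0.21 ± 0.16, with a 95% interval from -0.15 to 0.57 (adjusted p = 0.498), and was 0.10 and 0.32 without HFD fast replicates 3 and 4. With DESeq2 Elovl6 was called as well (1.09, adjusted p = 0.0315), as it was without CD fed replicate 1 (adjusted p = 0.0313), and Srebf1 was called without CD fast replicate 3 (1.06, adjusted p = 0.0259).

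**Figure D4:**
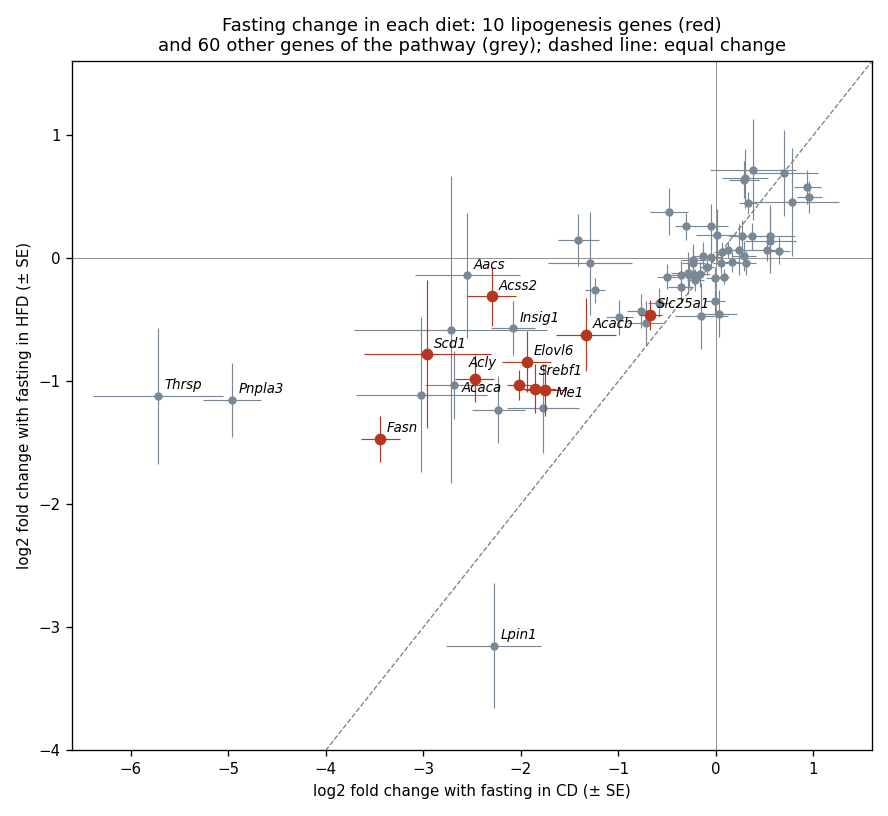
Log2 fold change with fasting in CD (x axis) and in HFD (y axis), each ± SE, for the 10 genes (red) and 60 other genes of the pathway (grey, some named). The 2 contrasts share no library. All 10 red points lie above the dashed line of equal change, Fasn at -3.44 and -1.47. The share of all genes above that line was not counted.

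The diet itself lowered most of these genes in fed mice. HFD fed livers were called lower than CD fed livers for 8 of the 10 genes, where 4.22% of all genes were called lower, with a median log2 fold change of -1.52 against 0.01 over all genes. HFD fed libraries lay wholly below CD fed libraries for 8 of the 10, as for 8.51% of all genes. This comparison shares the CD fed libraries with fasting in CD. The largest falls were in Scd1 (5.56-fold, -2.48 ± 0.63, adjusted p = 0.0279), Acss2 (4.63-fold, -2.21 ± 0.25, adjusted p = 0.000238) and Elovl6 (4.02-fold, -2.01 ± 0.25, adjusted p = 0.000381). Acly fell 3.41-fold (adjusted p = 0.000187), Fasn 2.92-fold (adjusted p = 0.00031), Acacb 2.81-fold (adjusted p = 0.0091), Acaca 2-fold (adjusted p = 0.00031) and Me1 1.65-fold (adjusted p = 0.0473).

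Slc25a1 was lower in every HFD fed library than in every CD fed library, but its difference of -0.34 ± 0.12 did not pass the test (adjusted p = 0.0842). It was called with DESeq2 (-0.34, adjusted p = 0.0458) and in an edgeR fit of these 2 groups alone (-0.33, adjusted p = 0.0404), and when HFD fast replicate 4 was left out (adjusted p = 0.0279). The call of Me1 was lost in 13 of 16 fits that each left out 1 library and that of Scd1 in 4 of 16, and without CD fed replicate 2 the 2 differences were -0.59 (adjusted p = 0.152) and -2.30 (adjusted p = 0.0765). With limma-voom neither was called, at -0.73 for Me1 (adjusted p = 0.0527) and -2.55 for Scd1 (adjusted p = 0.0617), and Me1 was not called with total count scaling (adjusted p = 0.0548) or in the fit of these groups alone (adjusted p = 0.1) either. That replicate had the highest level of its group in 9 of the 10 genes and was above the group mean of log2 CPM in all 10, whereas CD fed replicates 1 and 4 were below it in all 10.

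In fasted mice few of these genes passed the test between diets. HFD fast and CD fast livers differed by test in 2 of the 10 genes, where 7.7% of all genes were called. Srebf1 was higher, as given above, where 3.05% of all genes were called higher, and Elovl6 was 1.87-fold lower (-0.90 ± 0.25, adjusted p = 0.0377), where 4.65% were called lower. The Elovl6 call was lost in 7 of 16 fits that each left out 1 library. Acaca (-0.01 ± 0.12, 95% interval -0.27 to 0.25) and Me1 (-0.04 ± 0.21, 95% interval -0.49 to 0.42) had the smallest differences, while Acacb had -0.77 ± 0.30 (95% interval -1.43 to -0.11, adjusted p = 0.121), or -0.40 without CD fast replicate 2 (adjusted p = 0.385), and Scd1 -0.30 ± 0.60, with an interval from -1.60 to 1.01 that leaves room for a large difference either way. Acly had -0.28 ± 0.19, Acss2 -0.22 ± 0.24, Slc25a1 -0.13 ± 0.12 and Fasn 0.42 ± 0.18 (adjusted p = 0.156). Leaving out 1 library brought Acly to -0.09 (CD fast replicate 4), Acss2 to -0.07 (HFD fast replicate 4) and Slc25a1 to -0.24 or -0.02 (HFD fast replicate 3 or 4). With total count scaling Fasn was called higher (0.58, adjusted p = 0.0453), Elovl6 was no longer called (-0.73, adjusted p = 0.0681, and 0.0514 with upper quartile scaling), and the differences of Acaca, Me1 and Slc25a1 changed sign.

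HFD fed livers were also compared with CD fast livers, which asks how far each gene in the fed state on HFD stood from the fasted level on CD. HFD fed livers were higher in 5 of the 10 genes, where 9.35% of all genes were called higher. They were Srebf1 (4.82-fold, 2.27 ± 0.21, adjusted p = 2.11e-05), Fasn (3.73-fold, 1.90 ± 0.19, adjusted p = 3.08e-05), Me1 (2.05-fold, adjusted p = 0.00374), Acaca (2.03-fold, adjusted p = 0.000152) and Acly (1.63-fold, adjusted p = 0.0169). The call of Acly was lost without CD fast replicate 1 (adjusted p = 0.0526), CD fast replicate 2 (adjusted p = 0.0551) or HFD fed replicate 1 (adjusted p = 0.0508). Slc25a1 had 0.33 ± 0.12 (adjusted p = 0.0558) with no overlap between the groups. It was called in 6 of the 9 alternative fits that kept all its libraries and in 2 that left out an HFD fast library (replicate 3, 0.0344, or 4, 0.0166), with an adjusted p of 0.036 with the replicate number as a block, 0.0334 with DESeq2 and 0.0201 in a fit of these 2 groups alone. For Acss2 the difference was 0.09 (95% interval -0.44 to 0.61), for Elovl6 -0.07 (-0.60 to 0.47), for Acacb -0.15 (-0.81 to 0.50) and for Scd1 0.48 (-0.83 to 1.79). The Scd1 value was 0.14 without CD fast replicate 2 and 0.16 without HFD fed replicate 4, and that of Acacb was 0.22 without CD fast replicate 2. Acss2, Elovl6, Acacb and Scd1 in HFD fed livers were not distinguishable from their CD fast level at this spread.

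With fasting the fitted values of all 10 genes went down in both diets, whereas in fed mice on HFD Srebf1 was above and the 9 other genes below their CD fed levels. To take out any scaling of libraries, the counts of each of the other 9 genes were divided by the counts of Srebf1 in the same library, a measure chosen after the levels had been seen. The ratios combine differences already given and are shown as a description. All 9 were lower in every HFD fed library than in every CD fed library, as follows for 8 of them from levels that did not overlap in opposite directions. The Fasn ratio was 6.40 ± 1.46 in CD fed and 1.68 ± 0.33 in HFD fed libraries (SD, n = 4), the Acss2 ratio 2.31 ± 0.76 and 0.378 ± 0.10, and the Scd1 ratio 101 ± 21.9 and 13.9 ± 6.82. The difference in log2 ratio ran from -0.75 for Slc25a1 to -2.95 for Scd1. The 9 ratios share 1 denominator and are not independent.

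In fasted mice, where Srebf1 itself was higher in every HFD library, 7 of the 9 ratios were lower in every HFD library, with differences in log2 ratio from -1.26 for Acaca to -2.19 for Elovl6. Much of this restates the rise of Srebf1 by 1.21. Acaca and Me1, whose own differences were -0.01 and -0.04, had ratio differences of -1.26 and -1.29. The share of all genes with such a ratio to Srebf1 was not counted. The ratios of Fasn (-0.84) and Scd1 (-1.72) overlapped. With fasting in CD, the Slc25a1 ratio went from 1.35 ± 0.05 to 3.35 ± 1.09 and the Fasn ratio from 6.40 ± 1.46 to 2.28 ± 0.54 without overlap, and the other 7 overlapped. In HFD all 9 overlapped. The ratio of Acacb to Acaca counts was 0.937 ± 0.113 in CD fed and 0.679 ± 0.125 in HFD fed libraries, and the libraries overlapped.

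**Figure D5:**
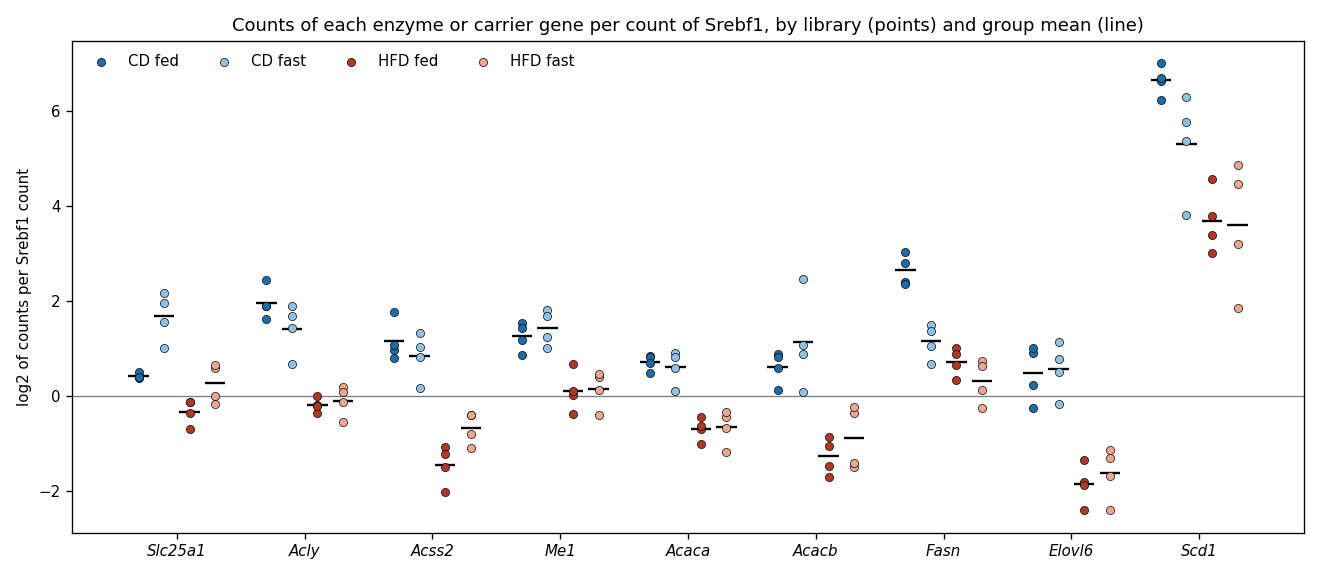
Counts of each of 9 genes per count of Srebf1 in the same library (y axis, log2), by group, with points for the 16 libraries and lines for group means of the log2 ratio. For all 9 genes the 4 HFD fed points lie below the 4 CD fed points, and for Scd1 the mean difference is -2.95.

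Together the 10 genes took up 2.12% ± 0.53 of all counts in CD fed and 0.50% ± 0.15 in HFD fed libraries, and 0.302% ± 0.12 and 0.289% ± 0.15 in the fasted libraries of CD and HFD (SD, n = 4), a share that Scd1 dominates. The mean of the 10 genes, each as log2 CPM centred on its mean over 16 libraries, was 1.4 ± 0.33 in CD fed and 0.10 ± 0.07 in HFD fed libraries, and -0.69 ± 0.18 and -0.81 ± 0.10 in the fasted libraries of CD and HFD. By the root mean square difference of centred log2 CPM over the 16 libraries, the most alike pair was Me1 and Acaca (0.30), followed by Acly and Acaca (0.37) and Acly and Acss2 (0.39). The least alike pairs were Slc25a1 and Scd1 (1.51) and Srebf1 and Scd1 (1.5). Scd1 was at 1.01 or more from every other gene of the set, so its distances also hold its own wide range.

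By the same measure, applied to 11004 genes with a mean of at least 100 counts, the genes whose pattern was most like that of Srebf1 were Dpy19l3 (0.30), Rgn (0.40), Dbf4 (0.41), Slc3a1 (0.43) and Shld2 (0.46), and none of the 9 other lipogenesis genes was among them. Dpy19l3 measured 23.0 ± 4.26 CPM in HFD fed, 13.9 ± 2.44 in CD fed, 11.5 ± 2.49 in HFD fast and 4.08 ± 0.97 in CD fast livers (SD, n = 4), in the same order of groups as Srebf1. Since it was picked for its likeness to Srebf1 in these same libraries, the shared order is no separate result. Most like Fasn were Rdh11 (0.47), Pklr (0.48), Acly (0.50) and Nsdhl (0.54). Pklr encodes liver pyruvate kinase and Nsdhl an enzyme of cholesterol synthesis. Most like the mean of the 10 were Gstm6 and 1810008I18Rik (both 0.28), Pygl (0.33), Insig1 (0.35) and Mpp4 (0.35). Pygl, liver glycogen phosphorylase, measured 692 ± 71.8 CPM in CD fed and 475 ± 47.5 in HFD fed livers, and 243 ± 36.9 and 237 ± 33.5 CPM in the fasted livers of CD and HFD.

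Around the 10 genes, a list of 61 further genes of the pathway was counted, of which 60 could be tested. Fasting in CD called 28 of the 60 (21 lower and 7 higher), where 25.2% of all genes were called, with a median of -0.14. Pklr, liver pyruvate kinase, fell by 2.69 on the log2 scale (adjusted p = 2.33e-05). Among 11 accessory and modifying proteins of the carboxylases and the synthase 3 fell and 1 rose: Thrsp, or Spot 14, with -5.72 ± 0.67 (adjusted p = 3.97e-05), Mid1ip1, its relative that promotes polymerization of acetyl-CoA carboxylase, with -2.23 ± 0.27 (adjusted p = 5.83e-05), Aasdhppt, which attaches the phosphopantetheine arm, with -0.58 ± 0.12, and Mlycd, malonyl-CoA decarboxylase, with 0.53 ± 0.09.

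The sublists are small, and nothing particular to them is read from their counts, since 11.5% of all genes were called lower in this contrast. The 8 other NADPH and citrate enzymes gave 4 falls and 1 rise. G6pdx and Pgd, the pentose phosphate dehydrogenases that yield NADPH, fell by 1.41 and 1.24 on the log2 scale, Idh1 fell by 0.77, and Pcx, pyruvate carboxylase, rose by 0.94. Of 12 tested elongation and desaturation genes 5 fell and 1 rose, among them Elovl3 with -1.77 ± 0.37, Fads1 with -0.72 ± 0.18, Scd2 with -1.29 ± 0.43 and Hacd3 with 0.96 ± 0.13. Of 3 acyl-CoA synthetases Aacs, the acetoacetyl-CoA synthetase, fell by 2.55. In glycerolipid synthesis 2 of 6 fell, Pnpla3, the lipid droplet protein patatin-like phospholipase domain-containing 3, by 4.96 and Lpin1, lipin 1, by 2.28, and Dgat1 rose by 0.65. Pnpla3 was of low level, at 12.1 ± 3.66 CPM in CD fed and 0.386 ± 0.04 CPM in CD fast livers (SD, n = 4).

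Of 5 genes that process SREBP 2 fell with fasting in CD. Insig1, which holds the SREBP and SCAP complex in the endoplasmic reticulum and is itself an SREBP target, fell by 2.08 (adjusted p = 2.69e-05), and Mbtps1, the site-1 protease, fell by 0.23 (adjusted p = 0.0232). Scap, the escort protein, had -0.23 ± 0.13 and Insig2 0.56 ± 0.26, neither called. Of 13 transcription factors and coactivators 2 fell and 3 rose, with a median log2 fold change of 0.05, a share of falls near that of all genes. Mlxipl, which encodes ChREBP, fell by 0.99 (adjusted p = 0.000176), Nfya, an NF-Y subunit, rose by 0.33, Med15, a Mediator subunit, rose by 0.37 and Nr1h2, LXR beta, rose by 0.31.

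Fasting in HFD called 11 of the 60 (7 lower and 4 higher), where 8.86% of all genes were called, and 3 without HFD fed replicate 1. Lpin1 had the largest fall, -3.15 ± 0.51 (adjusted p = 0.00223), against -2.28 ± 0.49 in CD, a difference that the interaction did not call, and Pklr had -1.03 ± 0.28, Mid1ip1 -1.23 ± 0.27 and Pnpla3 -1.15 ± 0.30. Insig1 had -0.57 ± 0.22 and was not called. HFD in fed mice called 9 of the 60, all lower, where 7.5% of all genes were called, and 5 without CD fed replicate 2. They included Insig1 (-1.19 ± 0.23, adjusted p = 0.0058) and Scap (-0.60 ± 0.13, adjusted p = 0.0119), with Insig1 at 368, 347, 335 and 218 CPM in CD fed and 145, 157, 123 and 129 CPM in HFD fed libraries. The HFD fed levels of Insig1 were all below the CD fed levels, opposite in direction to the Srebf1 values. Pnpla3 (-3.71 ± 0.27, adjusted p = 3.87e-06), G6pdx (-1.19 ± 0.21), Pgd (-0.79 ± 0.10) and Pklr (-1.16 ± 0.28) were called lower as well, with Hlcs (-0.68 ± 0.15), Tecr (-0.46 ± 0.12) and Gpam (-0.46 ± 0.11).

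HFD in fasted mice called 7 of the 60 (4 higher and 3 lower), where 7.7% of all genes were called, and from 2 to 8 in the fits that each left out 1 library. It was 2 without HFD fast replicate 3 or 4, 3 without CD fast replicate 1 or 2, and 4 without replicate 4 of CD fed or either replicate 1 or 2 of HFD fed. In an edgeR fit of these 2 groups alone 0 of 59 were called, with 15 at an unadjusted p under 0.05, so that every call named here for this contrast was lost, whereas DESeq2 on all libraries called 10 and limma-voom 6. Among those that rose was Thrsp with 3.07 ± 0.60 (adjusted p = 0.00863). Thrsp was 6.08, 5.99, 18 and 8.88 CPM in CD fast and 49.0, 201, 45.0 and 33.7 CPM in HFD fast libraries, the highest of them in HFD fast replicate 2. Aacs rose by 1.79 ± 0.53 (adjusted p = 0.0499), with overlap between the groups. Dgat1 (-0.49 ± 0.11), Mlycd (-0.35 ± 0.09) and Nr1h2 (-0.34 ± 0.10) fell. The interaction called 6 of the 60, all with a smaller fall or a change of sign in HFD, where 1.23% of all genes were called in that direction, and these were Thrsp, Pnpla3, Pklr, G6pdx, Insig1 and Pgd. With DESeq2 the interaction called 12, and its count over all genes was also higher, at 1079 against 390 with edgeR. In HFD fed against CD fast livers 22 of the 60 were called (13 higher and 9 lower), where 21.4% of all genes were called.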

How the data were processed

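Polyadenylated RNA of 16 mouse livers was sequenced in 4 groups of 4, assigned and numbered from the sample labels. The authors deposited raw counts, whole numbers per Ensembl gene. The authors extracted RNA with TRIzol and RNeasy, prepared NEBNext Ultra II libraries, aligned paired reads to GRCm38 with TopHat2 2.0.11, set for first-strand libraries, and made gene totals with featureCounts. The submitters' processing notes also name CASAVA 1.8.4. Which annotation release was used, whether counting respected strand and whether a pair counted as 1 are not given in the sources used here, so overlapping and antisense genes are uncertain. Positions came from GENCODE for GRCm38, and 45143 of 46078 identifiers matched a symbol.

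Genes passing filterByExpr (15075) were TMM-scaled and fitted in edgeR 4.0.16 (R 4.3.3) with 1 coefficient per group over all 16 libraries and 12 residual degrees of freedom. Quasi-likelihood tests were adjusted by Benjamini-Hochberg over all genes tested, at 0.05, and every adjusted p given for a gene comes from edgeR unless another tool is named. A prior count of 2 was added for log2 CPM. A total of 3 counts, the detection floor, was 0.0536 to 0.0767 CPM. Intervals are 95% and floors cover counting error only, since reads carry no molecular identifiers. Ratios of counts to Srebf1 (and of Acacb to Acaca) were chosen after the levels had been seen. In 40 two-sided exact permutation tests on them none passed after adjustment (lowest adjusted p 0.0636), and they are given as a description only.

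The members and gene lists were chosen with earlier results of these data known. Named genes were the 10 members, up to 4 genes of each pathway sublist with the smallest p in the contrast described, and the 5 genes of most similar pattern. Single results of 2 genes chosen by these rules are not reported here, although counts include them. Alternatives were DESeq2 1.42.0, limma-voom (limma 3.58.1), other scalings and filters, fits of each pair of groups alone, a block for replicate number, a fold limit and the omission of each library. Scripts were tested on simulated counts, drawn with edgeR's own estimates of spread and changed for fasting in CD only. There DESeq2 made a larger share of false calls than edgeR or limma-voom. Since that setting rests on edgeR's spread and covers no other contrast, it does not settle how certain calls made by DESeq2 alone are. The labels number the libraries of a group as separate samples without naming the animals, so p-values measure the spread between these samples. Libraries of a group all differed by more than sampling noise (lowest chi-square per gene 36.3). That comparison covers counting error only and does not show whether the libraries came from separate animals.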

Additional observations from a re-analysis of the deposited data

Results flagged for a closer look

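Of 44 sets of 4 libraries (the 10 genes and their mean in 4 groups), 2 held a library that stood apart from the other 3 by Dixon's test of the gap at the 95% level, where chance gives about 1 in 20. Srebf1 in HFD fed replicate 1 was 290.9 CPM, with the other libraries from 212.1 CPM. Elovl6 in CD fast replicate 2 was 73.04 CPM, with the lowest library at 66.83 CPM, in a group of narrow range. For the genes the gap was taken on linear CPM, not on the log2 scale. Scd1 in CD fast replicate 2, at 466 CPM, was not flagged on the linear scale. Its deviation from the group mean of log2 CPM was -1.98, the largest of any library.

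The fasting change differed between diets by the interaction test for 4 of the 10 genes: the difference in log2 fold change, HFD minus CD, was 1.97 for Fasn, 1.99 for Acss2, 1.49 for Acly and 0.99 for Acaca. Among the other pathway genes it was 4.59 for Thrsp, 3.80 for Pnpla3, 1.65 for Pklr, 1.56 for G6pdx, 1.51 for Insig1 and 0.98 for Pgd. For G6pdx the fasting change was -1.41 in CD and 0.15 in HFD, the second not called.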

How the results depend on the processing

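Over 25 alternatives per gene and contrast (24 for the interaction), 1402 member values kept direction and side of the threshold, 53 lost the threshold, 16 passed it and 19 changed sign. At the adjusted p alone, all 10 genes stayed called for fasting in CD in every alternative fit, and for the interaction Fasn, Acss2, Acly and Acaca stayed called. Requiring an absolute log2 fold change of at least 1 as well removed Slc25a1 from the first (9 left) and Acaca from the second (3 left). The number of the 10 genes called ranged over the fits that left out 1 library from 5 to 7 for fasting in HFD, 6 to 8 for HFD in fed mice, 1 to 2 for HFD in fasted mice, 4 to 5 for the interaction and 4 to 6 for HFD fed minus CD fast. With that limit it was 4 for fasting in HFD, 6 for HFD in fed mice, 1 for HFD in fasted mice and 4 for HFD fed minus CD fast, and the count for HFD in fasted mice was also 1 under upper quartile scaling and in a fit of those groups alone.

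Small differences changed sign in HFD in fasted mice: with total count scaling Slc25a1 was 0.02, Me1 0.12 and Acaca 0.16, with upper quartile scaling Me1 was 0.00 and Acaca 0.04, and with a mean of at least 100 counts Acaca was 0.02. In HFD fed minus CD fast Elovl6 was 0.05 with total count scaling. Leaving out 1 library gave -0.08 to 0.05 for Acaca, -0.13 to 0.05 for Me1 and -0.70 to 0.05 for Scd1 in HFD in fasted mice, and -0.31 to 0.22 for Acacb, -0.00 to 0.26 for Acss2 and -0.23 to 0.01 for Elovl6 in HFD fed minus CD fast. With edgeR fitted to the compared groups alone, the adjusted p of Srebf1 was 0.0556 for HFD in fasted and 0.0424 for HFD in fed mice. The cause was not tested. Total count scaling moved the median of all genes by 0.16 in HFD in fasted mice and 0.11 in HFD fed minus CD fast, and the share of called genes that were higher went from 39.6% to 88.1% and from 43.6% to 72.4%. It went from 54.4% to 44.3% for fasting in CD, 54.0% to 67.6% for fasting in HFD, 43.8% to 68.8% for HFD in fed mice and 47.4% to 69.5% for the interaction.

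Counts over all genes moved more: DESeq2 called 1768 for HFD in fed mice, 1967 for HFD in fasted mice and 1079 for the interaction, against 1131, 1161 and 390, and HFD in fasted mice gave 2101 with total count scaling and 90 from its own groups alone. With the fold limit they were 878 for fasting in CD, 306 for fasting in HFD, 321 for HFD in fed mice, 245 for HFD in fasted mice, 166 for the interaction and 637 for HFD fed minus CD fast. The lowest counts without 1 library were 505 for fasting in HFD without HFD fed replicate 1, 514 (HFD in fed mice) and 147 (interaction) without CD fed replicate 2, and 535 for HFD in fasted mice (HFD fast replicate 4). For HFD fed minus CD fast the lowest was 2145 without HFD fed replicate 1, against 3231. For fasting in CD it was 2857 without CD fast replicate 2, against 3797. Of the 5 genes most like Srebf1, 3 remained with a mean of at least 1000 counts. Replicate numbers were shared by the groups, with r over genes between same-numbered libraries from -0.24 to 0.66 in 24 pairs, 7 of them over 0.1. In no pair of groups were all 4 over 0.1, so the numbers were not taken as pairs. The r was 0.05, 0.10, 0.11 and 0.10 for CD fed with CD fast, where the own number was best in all 4, a hint from the data and not the design, and 0.11, 0.06, 0.12 and 0.66 for HFD fed with HFD fast, where it was best for replicate 4 only. HFD replicate 4 had the highest stellate marker sum of both HFD groups, 373 and 371 CPM. With the replicate block 10, 6, 8, 2, 4 and 6 of the 10 genes were called for fasting in CD and in HFD, for HFD in fed and fasted mice, for the interaction and for HFD fed minus CD fast, and 58 of 60 values kept their call. Slc25a1 gained its call in HFD fed minus CD fast (edgeR, adjusted p = 0.036) and Elovl6 lost it for fasting in HFD (adjusted p = 0.064). Whether counting error or the spread between libraries set the limit for each of the 10 genes was not tested. Counting error was not small beside a narrow spread, such as that of Acss2 in CD fast. It is not small either for genes of low level such as Pnpla3, with 13 to 19 counts per CD fast library.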
